A study of Homo sapiens with 6 samples.

Results

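The genes described here are 37 human genes whose products fold proteins in the endoplasmic reticulum, remove those that fail to fold, or sense that folding is under strain. They were taken as a list of symbols and matched through their Ensembl IDs to GENCODE 29, and all 37 were found among the 58735 genes of the deposited table. Levels are in FPKM, fragment numbers scaled by exon length and library size, as the authors deposited them. Genes entered the tests when their 3 libraries averaged at least 1 FPKM in either line; all 37 did, among 15638 genes in all. DERL3 passed through H660 only, so 36 of the 37 are counted where a rule of size is applied in C4-2B MDVR.

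The 6 libraries came from 2 prostate cancer cell lines. H660, or NCI-H660, comes from a neuroendocrine prostate cancer, and C4-2B MDVR is a form of C4-2B resistant to the antiandrogen enzalutamide. In each line 1 library was made after PLXND1 siRNA 2, 1 after PLXND1 siRNA 1 and 1 after a control siRNA, so that both knockdown libraries of a line are read against the same single control. The series addresses what Plexin D1, the semaphorin receptor encoded by PLXND1, does in these cells. PLXND1 itself was at 3.10 FPKM with siRNA 2 and 1.57 with siRNA 1 in C4-2B MDVR, against 7.40 in the control. In H660 it was at 7.54 FPKM with siRNA 2 and 7.62 with siRNA 1, against 9.13 in the control. It was lower than the control in all 4 knockdown libraries, at 0.418 and 0.212 times the control in C4-2B MDVR and 0.826 and 0.835 times in H660 with siRNA 2 and siRNA 1.

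The libraries held 17655802 to 24105369 fragments. The 5 luminal prostate markers (KLK3, FOLH1 and others) all reached 1 FPKM in C4-2B MDVR and none did in H660, whereas the 6 neuroendocrine markers all did in H660 and 1, ENO2, did in C4-2B MDVR. Of the markers of other cell types, leukocyte ones summed to at most 0.153 FPKM in any library and fibroblast ones to at most 5.06 FPKM, in C4-2B MDVR with siRNA 1. The 4 endothelial markers summed to 8.32 and 8.43 FPKM with siRNA 2 and siRNA 1 in H660, against 10.7 FPKM in the control, with CDH5 the only one at 1 FPKM or more, and to under 1 FPKM in C4-2B MDVR. Their part in the levels below was not tested. Mitochondrial genes took 6.83% and 7.44% of the fragments with siRNA 2 and siRNA 1 in C4-2B MDVR, against 3.38% in the control, and 8.58% to 9.64% in H660. The total that the FPKM values imply was 0.92 and 0.93 times the recovered fragment total in the C4-2B MDVR knockdown libraries, against 1.01 in their control, so that the deposited scale itself ran with the treatment in that line. Counts of members above the control, by role, are therefore also given under 3 other scalings.

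Proteins that enter the secretory route are threaded through the SEC61 channel, lose their signal peptide, and are folded by chaperones of which BiP, the product of HSPA5, is the best known. Disulfide bonds are formed by protein disulfide isomerases, and proteins that stay misfolded are carried back to the cytosol and degraded through the SEL1L and SYVN1 complex. When unfolded proteins build up, the sensors ATF6, IRE1 (ERN1) and PERK (EIF2AK3) start the unfolded protein response: ATF6 is cut by the site 1 protease (MBTPS1), IRE1 splices the XBP1 message, and the resulting factors switch on chaperone and degradation genes, while PERK slows translation and raises ATF4. Prostate luminal cells are secretory, and androgen is known to act on the IRE1 branch in them.

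The promoters of this response carry short elements that bind these factors, and they are shown because HSPA5, HERPUD1 and HYOU1 are among the genes that differed most between the knockdown libraries. The elements searched were ERSE (CCAAT, then 9 bases of any kind, then CCACG), ERSE-II (ATTGG, 1 base, CCACG) and UPRE (TGACGTGG), as exact matches on both strands of windows from 250 bases before to 50 after each RefSeq start. ERSE or ERSE-II was present in 46 of 35116 windows of that table, or 0.131%. By gene, 44 of the 27305 with a window held one. Among the 34 members matched to the table, 10 held one: CALR, CANX, CRELD2, HSP90B1, HSPA5, PDIA6 and XBP1 held ERSE, and HERPUD1, HYOU1 and SDF2L1 held ERSE-II. UPRE was present in 0.729% of windows and in those of DNAJC10 and HYOU1, where it shares 5 bases with the first ERSE-II. DERL1, DERL3 and PDIA3 were not matched. These elements are known from promoters of this response, so their presence in members is no independent result. A match is a string of letters in a window and says nothing of whether a factor binds there.

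The windows of 7 of these genes follow, from RefSeq on GRCh38.p14, written on the strand of the gene with the ERSE or ERSE-II match in capitals. HSPA5 is at chr9:125241294-125241593 on the minus strand, HSP90B1 at chr12:103930160-103930459 on the plus strand, XBP1 at chr22:28800520-28800819 on the minus strand, CRELD2 at chr22:49918384-49918683 on the plus strand, HERPUD1 at chr16:56931892-56932191 on the plus strand, HYOU1 at chr11:119057156-119057455 on the minus strand and SDF2L1 at chr22:21642052-21642351 on the plus strand. HSP90B1 and HYOU1 each hold 2 matches, and the other 5 hold 1.
HSPA5: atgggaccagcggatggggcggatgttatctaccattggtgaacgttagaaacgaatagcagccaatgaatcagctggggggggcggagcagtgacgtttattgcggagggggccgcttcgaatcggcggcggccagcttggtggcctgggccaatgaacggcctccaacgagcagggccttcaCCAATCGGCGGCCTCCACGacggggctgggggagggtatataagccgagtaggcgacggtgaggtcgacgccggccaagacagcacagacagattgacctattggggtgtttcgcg
HSP90B1: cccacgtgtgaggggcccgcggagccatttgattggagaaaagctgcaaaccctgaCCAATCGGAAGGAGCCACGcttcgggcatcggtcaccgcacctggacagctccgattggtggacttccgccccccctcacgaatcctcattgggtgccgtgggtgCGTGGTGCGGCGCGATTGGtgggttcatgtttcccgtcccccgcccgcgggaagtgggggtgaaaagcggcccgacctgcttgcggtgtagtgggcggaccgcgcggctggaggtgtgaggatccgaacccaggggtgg
XBP1: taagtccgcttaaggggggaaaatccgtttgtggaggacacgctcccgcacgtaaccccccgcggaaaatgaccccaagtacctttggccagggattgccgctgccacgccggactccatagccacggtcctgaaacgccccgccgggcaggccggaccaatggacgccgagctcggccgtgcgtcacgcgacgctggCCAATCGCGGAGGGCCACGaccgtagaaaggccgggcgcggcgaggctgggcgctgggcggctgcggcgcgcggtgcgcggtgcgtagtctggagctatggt
CRELD2: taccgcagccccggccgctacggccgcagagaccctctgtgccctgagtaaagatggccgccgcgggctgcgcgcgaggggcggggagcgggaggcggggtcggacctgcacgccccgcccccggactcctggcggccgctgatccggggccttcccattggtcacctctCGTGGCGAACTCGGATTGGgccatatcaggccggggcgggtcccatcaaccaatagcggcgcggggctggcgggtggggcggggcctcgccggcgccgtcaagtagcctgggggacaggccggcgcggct
HERPUD1: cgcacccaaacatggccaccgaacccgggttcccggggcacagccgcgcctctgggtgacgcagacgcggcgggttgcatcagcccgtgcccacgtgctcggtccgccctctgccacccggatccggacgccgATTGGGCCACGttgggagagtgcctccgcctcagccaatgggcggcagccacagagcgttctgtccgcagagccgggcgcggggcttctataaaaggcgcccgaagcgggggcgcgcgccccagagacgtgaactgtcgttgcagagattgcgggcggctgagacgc
HYOU1: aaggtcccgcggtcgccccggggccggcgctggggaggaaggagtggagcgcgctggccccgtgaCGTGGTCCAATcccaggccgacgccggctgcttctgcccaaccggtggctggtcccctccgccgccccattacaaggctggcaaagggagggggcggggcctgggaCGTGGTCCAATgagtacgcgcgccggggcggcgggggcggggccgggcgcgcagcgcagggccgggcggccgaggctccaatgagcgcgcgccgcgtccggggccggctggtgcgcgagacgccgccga
SDF2L1: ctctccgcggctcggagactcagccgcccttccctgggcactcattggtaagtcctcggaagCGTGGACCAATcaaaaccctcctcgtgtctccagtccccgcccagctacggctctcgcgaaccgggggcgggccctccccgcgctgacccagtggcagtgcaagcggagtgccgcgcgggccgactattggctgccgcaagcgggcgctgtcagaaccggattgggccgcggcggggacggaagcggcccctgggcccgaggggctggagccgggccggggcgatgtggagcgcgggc

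**Figure D1:**
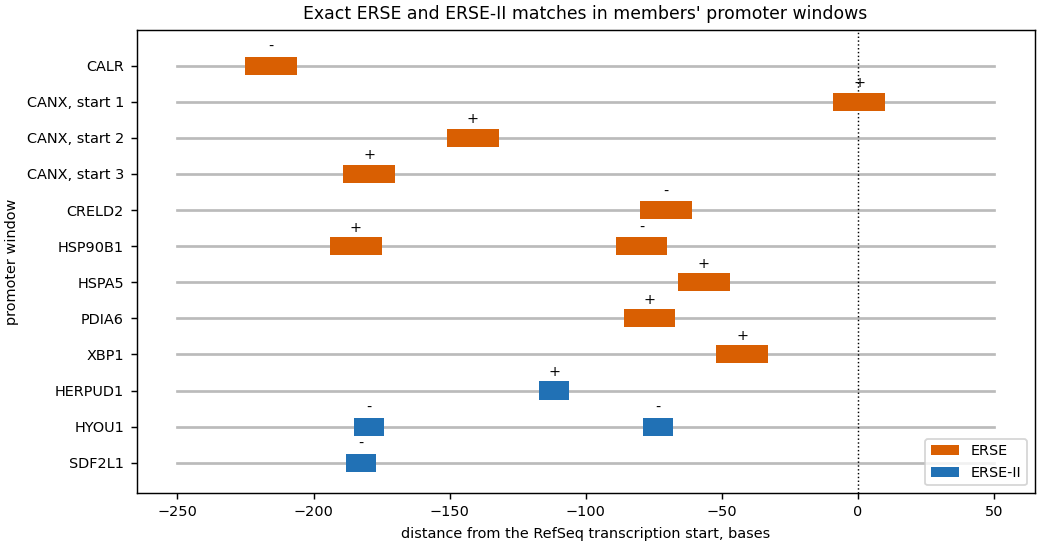
Positions of exact ERSE (orange) and ERSE-II (blue) matches in the promoter windows of the 10 members that hold one, as distance in bases from the RefSeq start (dotted line at 0), with the strand of the match above each block. In HSPA5 the match begins at −66 and in XBP1 at −52. The 3 windows of CANX belong to 3 starts and show the same stretch of genome.

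Most of the 37 genes were expressed above the median gene, in bulk libraries in which fewer cells of a type and less RNA per cell cannot be told apart. Their median was 15.5 FPKM with siRNA 2, 16.4 with siRNA 1 and 13.9 with the control siRNA in H660, and 25.2, 21.6 and 19.9 FPKM in C4-2B MDVR. The medians of all expressed genes lay between 5.89 and 6.83 FPKM. Between 32 and 34 members stood above that median in each library. The highest member was CALR, the lectin chaperone calreticulin, at 565, 528 and 492 FPKM in H660 with siRNA 2, siRNA 1 and control, and the lowest was DERL3, a derlin of the degradation channel, at 1.32, 0.695 and 1.01 FPKM. In C4-2B MDVR CALR was the highest member with siRNA 1 (422 FPKM) and in the control (381 FPKM), and HSPA5 was the highest with siRNA 2 (559 FPKM). Together the members summed to 2002, 1946 and 1777 FPKM in H660 and to 2979, 2318 and 2311 FPKM in C4-2B MDVR, with siRNA 2, siRNA 1 and control in that order.

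**Figure D2:**
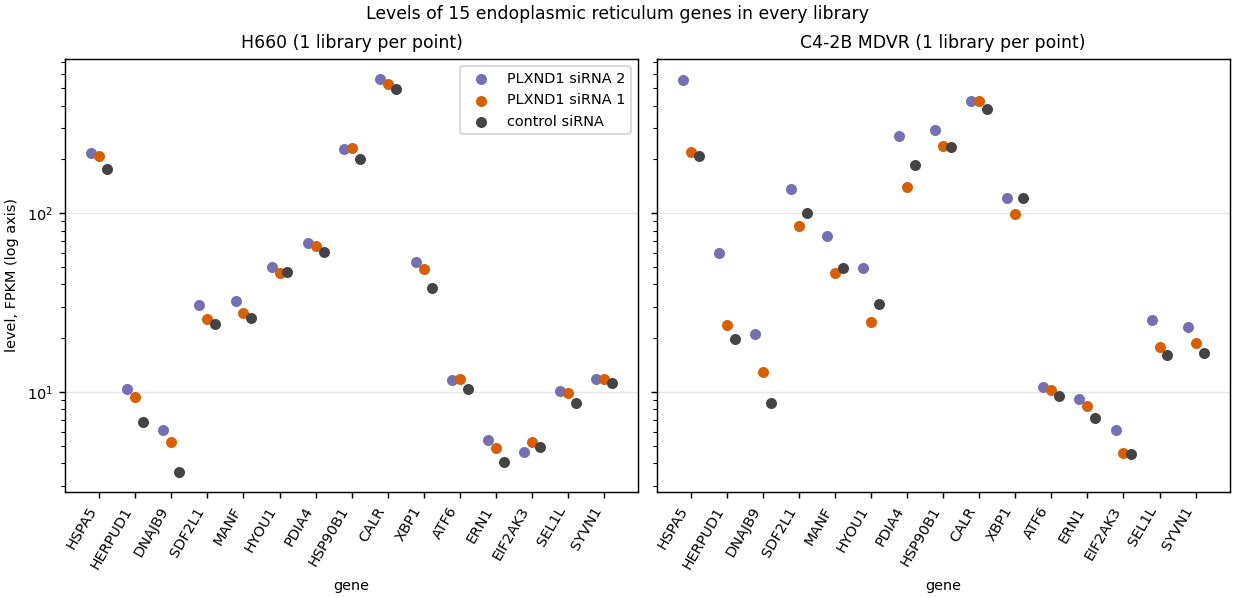
FPKM (log axis) of 15 members in every library, H660 on the left and C4-2B MDVR on the right, with 1 point per library for siRNA 2, siRNA 1 and control. In C4-2B MDVR the siRNA 2 point of HSPA5 stands at 559 FPKM, apart from 219 with siRNA 1 and 208 in the control, whereas in H660 the 3 points of HSPA5 lie between 177 and 216 FPKM.

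In C4-2B MDVR several of these genes, HSPA5 and HERPUD1 among them, were highest with siRNA 2, while others, such as OS9 and DERL2, were not. HSPA5, which encodes BiP (ENSG00000044574, chromosome 9 from 125234853 to 125241330), was at 559 FPKM with siRNA 2 and 219 FPKM with siRNA 1, against 208 FPKM in the control. The siRNA 2 library was 2.68 times the control (95% interval 2.63 to 2.73) and the siRNA 1 library 1.05 times (1.03 to 1.07). These intervals are exact binomial ones from recovered fragment numbers and cover counting error only. HERPUD1 (ENSG00000051108, chromosome 16 from 56932048 to 56944863), a membrane protein of the degradation complex, was at 59.9 FPKM with siRNA 2 and 23.7 with siRNA 1, against 19.9 in the control. DNAJB9, the BiP co-chaperone ERdj4 (ENSG00000128590, chromosome 7 from 108569568 to 108574850), was at 21.2 FPKM with siRNA 2 and 13.0 with siRNA 1, against 8.64 in the control. For HSPA5 and HERPUD1 the siRNA 2 library stood apart, while for DNAJB9 both knockdown libraries were above the control.

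A rule of size, at least 1.5-fold on the scale of FPKM + 1, was used to count such genes, since each siRNA had 1 library and no test between single libraries is possible. With siRNA 2, 7 of 36 members (19.4%) were at least 1.5-fold higher than the control, against 6.13% of the 12888 genes expressed in that line: HSPA5, HERPUD1, DNAJB9, DNAJC3, HYOU1, SEL1L and MANF. Under quantile normalization, after rescaling without mitochondrial genes, and with the library totals taken as the recovered fragments, 3 of them passed each time, HSPA5, HERPUD1 and DNAJB9 (8.33% of members, against 3.97% to 4.41% of all genes). DERL2 was 1.5-fold lower (2.78%, against 4.91%). With siRNA 1, WFS1 was 1.5-fold higher, 2.78% of members against 8.29% of all genes, and CREB3L2 1.5-fold lower (2.78%, against 5.64%). No member passed the rule the same way with both siRNAs, against 3.6% of all genes. DNAJB9 came close: in FPKM it was at 2.45 times the control with siRNA 2 and 1.5 times with siRNA 1. On the scale of FPKM + 1 its siRNA 1 change, 0.54 log2 units, fell just short.

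Set directly against each other, siRNA 2 gave at least 1.5-fold higher levels than siRNA 1 for 8 of 36 members (22.2%), against 8.78% of all genes in C4-2B MDVR, and lower levels for 2 (5.56%, against 9.15%). The ratio of siRNA 2 to siRNA 1 was 2.55 for HSPA5 (95% interval 2.50 to 2.60) and 2.52 for HERPUD1 (2.40 to 2.65). It was 2.05 for CREB3L2, a membrane-bound transcription factor of secretory cells, 2.03 for HYOU1, a large chaperone of the HSP70 family, and 1.94 for PDIA4, a disulfide isomerase. DNAJB9 (1.63), SDF2L1, a partner of BiP co-chaperones (1.62), and MANF, a secreted BiP-binding factor (1.6), completed the 8. Those lower with siRNA 2 were OS9, a lectin that delivers glycoproteins for degradation, at 0.613 times siRNA 1, and DERL2, a second derlin, at 0.413 times. The same 8 genes were higher under each of the 4 other settings run for this count, which lists 10 or 11 members apart in all.

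These 8 genes did not all rank alike against the control. HYOU1 was at 49.7 FPKM with siRNA 2 and 24.6 with siRNA 1, against 31.2 in the control, and PDIA4 at 271 and 139.5 FPKM, against 186 in the control. SDF2L1 was at 136 and 84.4 FPKM, against 100.1 in the control. For these genes and for CREB3L2 (16.1 and 7.85 FPKM, against 12.9) the control lay between the siRNA 2 library above and the siRNA 1 library below. MANF was at 74.4 and 46.5 FPKM, against 49.3 in the control. DERL2 ran the other way, at 3.75 FPKM with siRNA 2 and 9.08 with siRNA 1, against 8.12 in the control. The same siRNA 2 library had the lowest sum of luminal markers in the line, 450.4 FPKM, against 1092 with siRNA 1 and 797 in the control, and its PLXND1 ratio was the higher of the pair. The part of these differences in the chaperone levels was not tested.

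**Figure D3:**
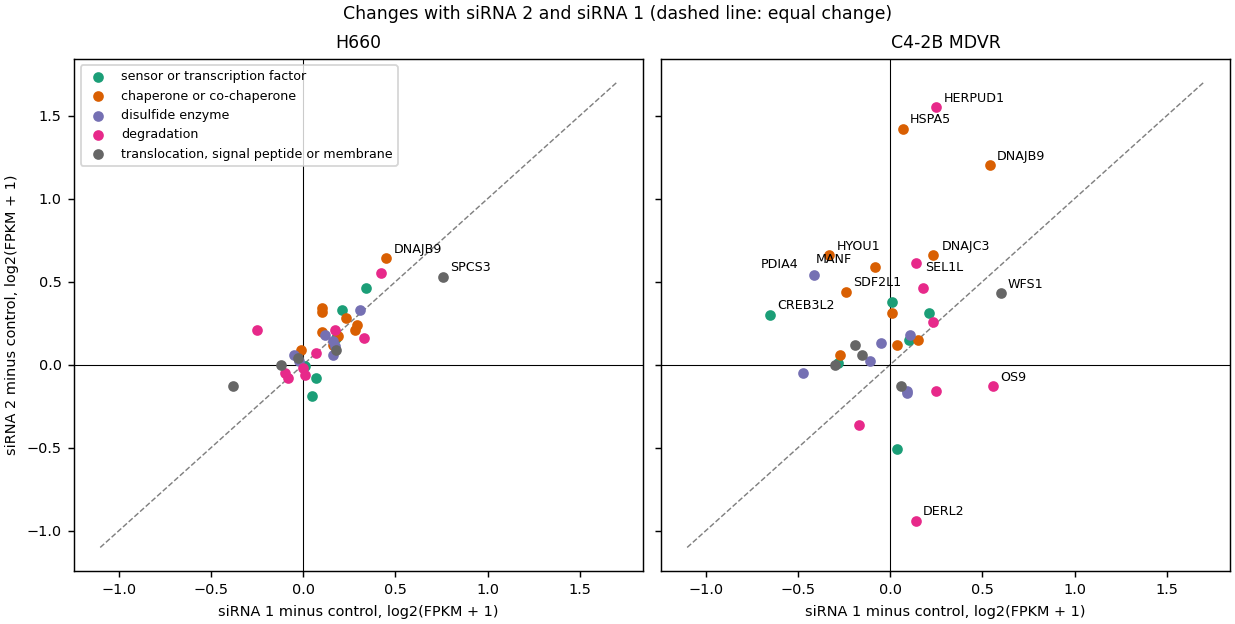
Change of each member against the control of its line, siRNA 2 (vertical) against siRNA 1 (horizontal), in log2(FPKM + 1), coloured by role, with a dashed line at equal change. Both axes use the same control library of the line, so the 2 changes are not independent. In C4-2B MDVR HERPUD1, HSPA5 and DNAJB9 lie at 1.55, 1.42 and 1.20 on the vertical axis and at 0.25, 0.07 and 0.54 on the horizontal one, and in H660 the members lie near the dashed line.

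By role, the 10 chaperones and co-chaperones were all above the control with siRNA 2 in C4-2B MDVR as deposited, with a median log2 difference of 0.51, against 0.04 for all genes. With siRNA 1, 6 of the 10 were above it (median 0.02). Of all 36 measured members, 26 were above the control with siRNA 2 and 22 with siRNA 1, where 54.9% and 53.4% of all genes were. Under the other 3 scalings these counts were 19 to 21 with siRNA 2, where 39.8% to 49.1% of all genes were, and 12 to 17 with siRNA 1, where 41.0% to 48.5% were. The same shares of all genes apply to the counts of each role in this line. Under each of these scalings 8 of the 10 chaperones were above the control with siRNA 2 (median 0.38 to 0.41) and 3 or 4 with siRNA 1. HSP90B1, the HSP90 chaperone GRP94, was at 292 FPKM with siRNA 2 and 237 with siRNA 1, against 236 in the control. Of the 2 lectin chaperones, CALR was at 422 FPKM with either siRNA, against 381 in the control, and CANX, calnexin, at 62.6 and 49.5 FPKM, against 59.9 in the control. DNAJB11, a BiP co-chaperone, was at 22.8 and 21.6 FPKM, against 21.0, and DNAJC3, which binds BiP and inhibits eIF2 kinases, at 17.2 and 12.5 FPKM, against 10.5.

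With siRNA 2 the 6 sensors and factors all lay nearer the control than HSPA5 and HERPUD1 did, whereas with siRNA 1 XBP1 and CREB3L2 lay farther from it than either. As deposited, 5 of the 6 were above the control with siRNA 2 and 4 with siRNA 1, and under the other 3 scalings 4 were with siRNA 2 and 1 or 2 with siRNA 1. ATF6 was at 10.7 FPKM with siRNA 2 and 10.3 with siRNA 1, against 9.53 in the C4-2B MDVR control, and ERN1 at 9.14 and 8.41 FPKM, against 7.15. EIF2AK3 was at 6.15 and 4.54 FPKM, against 4.49, so that only the siRNA 2 library was clear of the control. XBP1, whose total transcript is counted here and not its spliced form, was at 121 FPKM with siRNA 2 and 99.5 with siRNA 1, against 121 in the control. MBTPS1 was at 7.63 and 11.7 FPKM, against 11.3. Of the 6 genes in this role, CREB3L2 with siRNA 1 was the only one 1.5-fold from the control.

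Of the 8 measured degradation genes, 4 were above the control with siRNA 2 and 7 with siRNA 1 in C4-2B MDVR, as deposited and under each of the other 3 scalings. SEL1L and SYVN1 of the retrotranslocation complex were highest with siRNA 2. SEL1L was at 25.2 and 17.8 FPKM, against 16.1 in the control, and SYVN1, its ubiquitin ligase, at 23.2 and 18.9 FPKM, against 16.6. The mannose-trimming EDEM1 was at 18.5 and 18.1 FPKM, against 15.3, while EDEM2 was at 26.7 and 35.6 FPKM, against 29.8. OS9 was at 38.8 and 63.4 FPKM, against 42.5, and stood apart with siRNA 1. DERL1, on the contrary, was at 11.6 and 13.4 FPKM, below the control at 15.2. DERL3 averaged under 1 FPKM, at 1.25 and 0.562 FPKM, against 0.699.

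Of the 7 disulfide enzymes, 4 were above the control with siRNA 2 (median 0.02, against 0.04 for all genes) and 3 with siRNA 1 (−0.05, against 0.03). Under the other 3 scalings these counts were 2 or 3 with siRNA 2 and 0 to 3 with siRNA 1. Of the 5 genes of translocation and the membrane, 3 were above it with siRNA 2 (median 0.06) and 2 with siRNA 1 (−0.15), and under the other scalings 1 or 2 were with siRNA 2 (−0.07 to −0.02) and 1 with siRNA 1 (−0.28 to −0.22). P4HB, the classical protein disulfide isomerase, was at 198 and 236 FPKM, against 222 in the control, and PDIA3 at 107 and 128 FPKM, against 120.1. DNAJC10, a reductase that helps degradation, was at 5.11 and 3.57 FPKM, against 5.32. SEC61A1, the channel itself, was at 137 and 118 FPKM, against 132. WFS1, a membrane protein that restrains ATF6 signalling, was at 31.5 and 35.5 FPKM, against 23.1, and stood above the control with both siRNAs. The remaining members, PDIA6, CRELD2, ERO1A, SEC61B, SSR1 and SPCS3, differed from the control by at most 0.30 log2 units in either direction.

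In H660 the same genes differed little between the siRNAs. No member of 37 was 1.5-fold apart between siRNA 2 and siRNA 1, against 4.88% of the 13946 genes expressed there. HSPA5 was at 216 FPKM with siRNA 2 and 208 with siRNA 1, against 177 in the control, and HERPUD1 at 10.4 and 9.36 FPKM, against 6.77. DNAJB9 was at 6.13 and 5.26 FPKM, against 3.57, and XBP1 at 53.4 and 48.8 FPKM, against 38.4. Each of these 4 genes had both knockdown libraries above the control. HSP90B1 was at 228 and 231 FPKM, against 202.

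By the rule of size, 1 member was higher with siRNA 2 in H660, DNAJB9 (2.7%, against 3.49% of all genes), and 1 with siRNA 1, SPCS3 (2.7%, against 3.91%). None was 1.5-fold lower, against 2.05% of all genes with siRNA 2 and 2.56% with siRNA 1. SPCS3, a subunit of the signal peptidase, was at 10.2 and 12.2 FPKM, against 6.77 in the control. None passed with both siRNAs, against 2.64% of all genes. The direction was more even than the size: 29 members were above the control with siRNA 2 and 28 with siRNA 1, where 48.8% and 46.0% of all genes were. Under the other 3 scalings these counts were 27 with siRNA 2, where 43.7% to 46.5% of all genes were, and 25 to 28 with siRNA 1, where 44.2% to 46.4% were. The chaperones counted 10 and 9 of 10 as deposited (medians 0.22 and 0.17), and 10 and 9 or 10 under the other scalings. The disulfide enzymes counted 7 and 5 of 7 as deposited and 6 and 5 or 6 under the other scalings. The sensors and factors counted 3 of 6 with siRNA 2 under all 4 scalings and 6 with siRNA 1 as deposited (5 or 6 under the others). The degradation genes counted 5 of 9 with siRNA 2 under all 4 and 6 with siRNA 1 as deposited (4 to 6 under the others). The genes of translocation and the membrane counted 4 of 5 with siRNA 2 as deposited (3 under the others) and 2 with siRNA 1 under all 4. ERO1A, the oxidase that recharges the isomerases, was at 11.3 and 11.2 FPKM, against 8.81. WFS1 was at 5.60 and 4.54 FPKM, against 6.24, below the control with both siRNAs.

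The other members of note were close to the control in H660. ATF6 was at 11.7 FPKM with siRNA 2 and 11.9 with siRNA 1, against 10.4 in the control, and EIF2AK3 at 4.64 and 5.25 FPKM, against 4.95. CREB3L2 was at 6.0 and 6.11 FPKM, against 6.07, and MBTPS1 at 11.7 and 13.9 FPKM, against 13.4. Of these 4 factors, ATF6 alone had both knockdown libraries above the control. Among chaperones, HYOU1 was at 49.9 and 46.5 FPKM, against 46.8, DNAJC3 at 15.5 and 16.4 FPKM, against 13.3, and MANF at 32.5 and 27.8 FPKM, against 25.9. In degradation, SEL1L was at 10.2 and 9.93 FPKM, against 8.70, and SYVN1 at 11.9 FPKM with either siRNA, against 11.3. HYOU1, unlike DNAJC3, MANF, SEL1L and SYVN1, had its siRNA 1 library just below the control. DERL2 was at 8.33 and 9.54 FPKM, against 7.37, OS9 at 38.3 and 39.0 FPKM, against 38.9, and EDEM1 at 6.73 and 6.46 FPKM, against 6.98. P4HB was at 97.4 and 95.4 FPKM, against 96.4. SPCS3, high in the H660 knockdown libraries, was in C4-2B MDVR at 10.7 FPKM with siRNA 2 and 8.53 with siRNA 1, against 10.7 in the control.

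**Figure D4:**
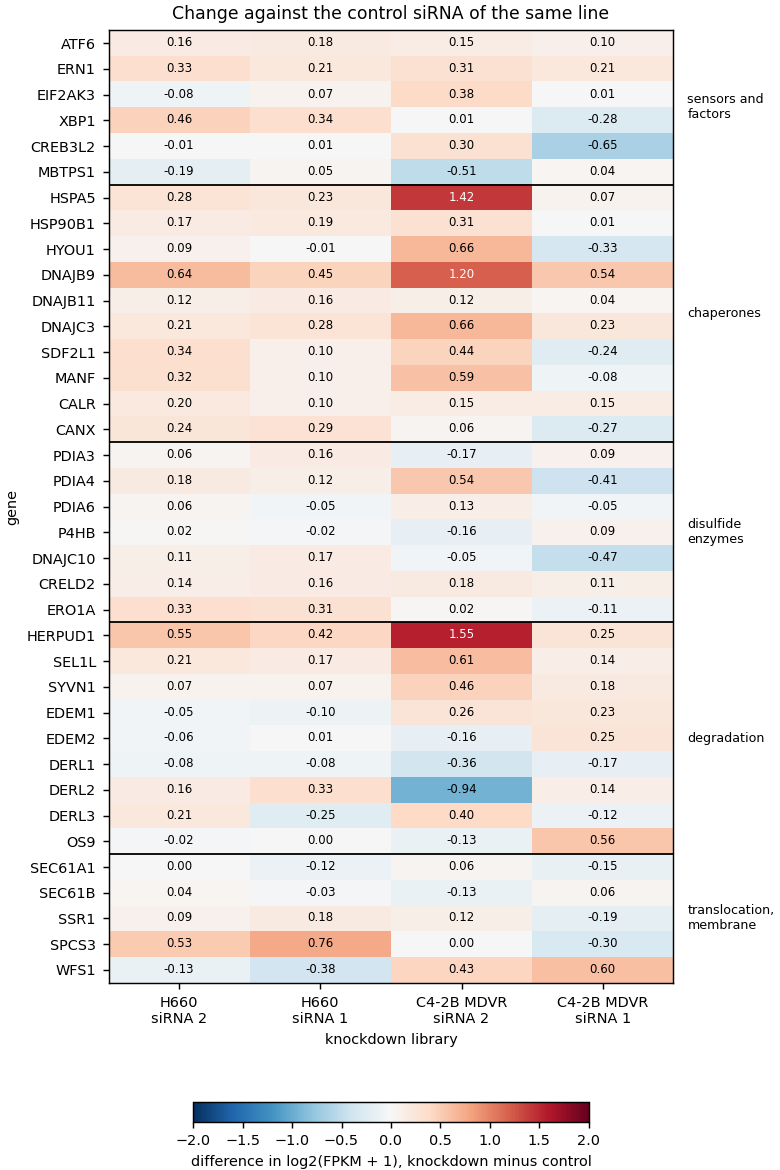
Difference from the control of the same line in log2(FPKM + 1) for all 37 members, grouped by role, in the 4 knockdown libraries. The columns of a line share 1 control. The H660 columns hold small positive values for most chaperones (up to 0.64 for DNAJB9), and the C4-2B MDVR siRNA 2 column holds both the highest value, 1.55 for HERPUD1, and the lowest, −0.94 for DERL2.

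Over both lines, 12 of 37 members (32.4%) were higher than their control in all 4 knockdown libraries, against 10.7% of all genes tested: ATF6, CALR, CRELD2, DNAJB11, DNAJB9, DNAJC3, ERN1, HERPUD1, HSP90B1, HSPA5, SEL1L and SYVN1. DERL1, at 20.2 and 20.3 FPKM in H660 against 21.4 in the control, was the 1 member lower in all 4 (2.7%, against 10.1%). The count was 8 under quantile normalization (21.6%, against 9.11%), 10 after rescaling (27.0%, against 7.2%) and 7 with totals taken as recovered fragments (18.9%, against 6.5%). DNAJB9, DNAJC3, ERN1, HERPUD1, SEL1L and SYVN1 were in the list under all 4 scalings. DNAJB9 had the greatest of the smallest changes, 0.45 log2 units or more in each library. HSP90B1 was in the list by a margin of 0.01 in C4-2B MDVR with siRNA 1.

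No gene of any kind passed the knockdown tests, so no member is called changed by PLXND1 siRNA. The target PLXND1 did not pass either, at −1.37 ± 0.31 in C4-2B MDVR (adjusted p = 0.711 by limma). Over both lines it was at −0.81 ± 0.30 (adjusted p = 0.985 by limma). The absence of calls therefore does not show that the members were unchanged. The tests used limma on log2(FPKM + 1) with Benjamini-Hochberg adjustment over the 15638 genes, and called 0 of 37 members (background 0.0%) for both lines together, for C4-2B MDVR, for H660 and for the difference between them. Voom on recovered fragments also called 0 members in each. At an unadjusted p under 0.05 stood 2, 2, 1 and 1 members, where 4.18%, 5.89%, 4.14% and 4.48% of all genes did. DNAJB9 had the largest estimate for both lines together, 0.71 ± 0.21 (SE; 95% interval 0.20 to 1.22; adjusted p = 0.985 by limma), and was higher in 4 of 4 libraries. HERPUD1 was at 0.69 ± 0.35 and HSPA5 at 0.50 ± 0.37, with wider errors because their 2 siRNA libraries differed in C4-2B MDVR. The lowest were DERL1 (−0.17 ± 0.12), MBTPS1 (−0.15 ± 0.18) and CREB3L2 (−0.09 ± 0.26). Separate cultures are not stated for these libraries in the labels, so the p-values measure only the spread between them. In the fits per line that spread is between siRNA 2 and siRNA 1, and part of it may be technical. In the fit over both lines it also holds differences in response between the lines.

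Within C4-2B MDVR the median over the members was 0.10, against 0.02 for all genes, and in H660 it was 0.14, against −0.01. In C4-2B MDVR the members' median lay close to that of all genes under other scalings, at 0.01 against 0.00 under quantile normalization, 0.00 against −0.03 after rescaling and −0.04 against −0.09 with voom. In H660 it stayed between 0.12 and 0.13 under these, against −0.04 to −0.02. HSPA5 in C4-2B MDVR was at 0.75 ± 0.58 (adjusted p = 0.951 by limma): it came to 1.42 without the siRNA 1 library and 0.07 without the siRNA 2 library. HERPUD1 was at 0.90 ± 0.56, with 1.55 and 0.25 under the same omissions. In H660 the largest estimates were SPCS3 (0.65 ± 0.21), DNAJB9 (0.55 ± 0.32) and HERPUD1 (0.48 ± 0.56).

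Between the lines the members differed in many cases. By limma with a further 2-fold minimum, 12 of 37 members (32.4%) were called, against 38.0% of all genes, with 10 lower in H660 (27.0%, against 17.9%) and 2 higher (5.41%, against 20.1%). The total is thus no more than the background, and the called genes were mostly on the lower side. The median over the members was −0.39 log2 units, against 0.00 for all genes. After rescaling it was −0.11, against 0.26, and with voom −0.24, against 0.17, and under quantile normalization −0.20, against −0.03. The scale thus shifts the median of all genes by up to 0.26, and the members' median was below it under each of these scalings.

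The genes lower in H660 belonged to several roles. WFS1 was the farthest apart, at 5.60, 4.54 and 6.24 FPKM in the siRNA 2, siRNA 1 and control libraries of H660, against 31.5, 35.5 and 23.1 FPKM in those of C4-2B MDVR (−2.25 ± 0.19, adjusted p = 0.000128 by limma). SDF2L1 was at 30.5, 25.6 and 23.9 FPKM, against 136, 84.4 and 100.1 FPKM (−1.94 ± 0.20, adjusted p = 0.000282). HERPUD1 followed at −1.70 ± 0.33 (adjusted p = 0.0043). In all 3 genes every H660 library lay below every C4-2B MDVR library. PDIA4 was at 68.6, 66.0 and 60.5 FPKM in H660, against 271, 139.5 and 186 FPKM in C4-2B MDVR, a difference of −1.55 ± 0.25. SEC61A1 was at 46.6, 42.9 and 46.6 FPKM, against 137, 118 and 132 FPKM (−1.49 ± 0.11). CRELD2, a disulfide isomerase-like protein of the stress response, was at 7.61, 7.74 and 6.80 FPKM, against 22.3, 21.1 and 19.6 FPKM (−1.39 ± 0.10). DNAJB9 (−1.29 ± 0.20), XBP1 (−1.27 ± 0.16), EDEM1 (−1.24 ± 0.11) and P4HB (−1.17 ± 0.12) completed the 10. Of these, XBP1, EDEM1 and P4HB dropped under 2-fold after rescaling (−0.98, −0.98 and −0.88), XBP1 and P4HB also under quantile normalization (−0.89 and −0.78), and P4HB with voom (−1.0).

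The 2 members called higher in H660 were DNAJC10, the reductase, and CANX, the lectin chaperone. DNAJC10 was at 15.0, 15.8 and 13.9 FPKM in the siRNA 2, siRNA 1 and control libraries of H660, against 5.11, 3.57 and 5.32 FPKM in those of C4-2B MDVR (1.5 ± 0.16, adjusted p = 0.000311 by limma). CANX was at 139, 144 and 118 FPKM, against 62.6, 49.5 and 59.9 FPKM (1.21 ± 0.14, adjusted p = 0.000553). Its lectin partner CALR was at 0.37 ± 0.12, significant but under 2-fold. With no fold minimum, 19 members were lower (51.4%, against 34.6% of all genes) and 4 higher (10.8%, against 35.2%). SEL1L was at −0.94 ± 0.15 and MANF at −0.93 ± 0.19, both significant and close to the 2-fold line.

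As deposited, several of the best known genes did not differ detectably between the lines. HSPA5 was at −0.56 ± 0.35 (95% interval −1.41 to 0.29). Its lines overlapped, since H660 with siRNA 2 was at 216 FPKM and the C4-2B MDVR control at 208 FPKM. The C4-2B MDVR values reached from 208 to 559 FPKM. HSP90B1 was at −0.20 ± 0.13 (−0.52 to 0.11), ATF6 at 0.14 ± 0.10 (−0.09 to 0.37; adjusted p = 0.236 by limma) and EIF2AK3 at −0.02 ± 0.14 (−0.36 to 0.32). ATF6 passed the test, under 2-fold, after rescaling (0.41, adjusted p = 0.0113 by limma) and with voom (0.33, adjusted p = 0.0318), so its result depends on the scale. HSPA5 was at −0.90 (adjusted p = 0.0337 by limma) without the C4-2B MDVR siRNA 1 library and at −0.13 without the siRNA 2 library. ERN1 differed, at 5.38, 4.88 and 4.07 FPKM in the siRNA 2, siRNA 1 and control libraries of H660, against 9.14, 8.41 and 7.15 FPKM in those of C4-2B MDVR (−0.68 ± 0.10, adjusted p = 0.00152 by limma), which is under 2-fold. Of the 3 sensors, the IRE1 gene and its target XBP1 were thus lower in H660. The 3 libraries of each line did not overlap for 25 members (67.6%, against 74.5% of all genes).

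**Figure D5:**
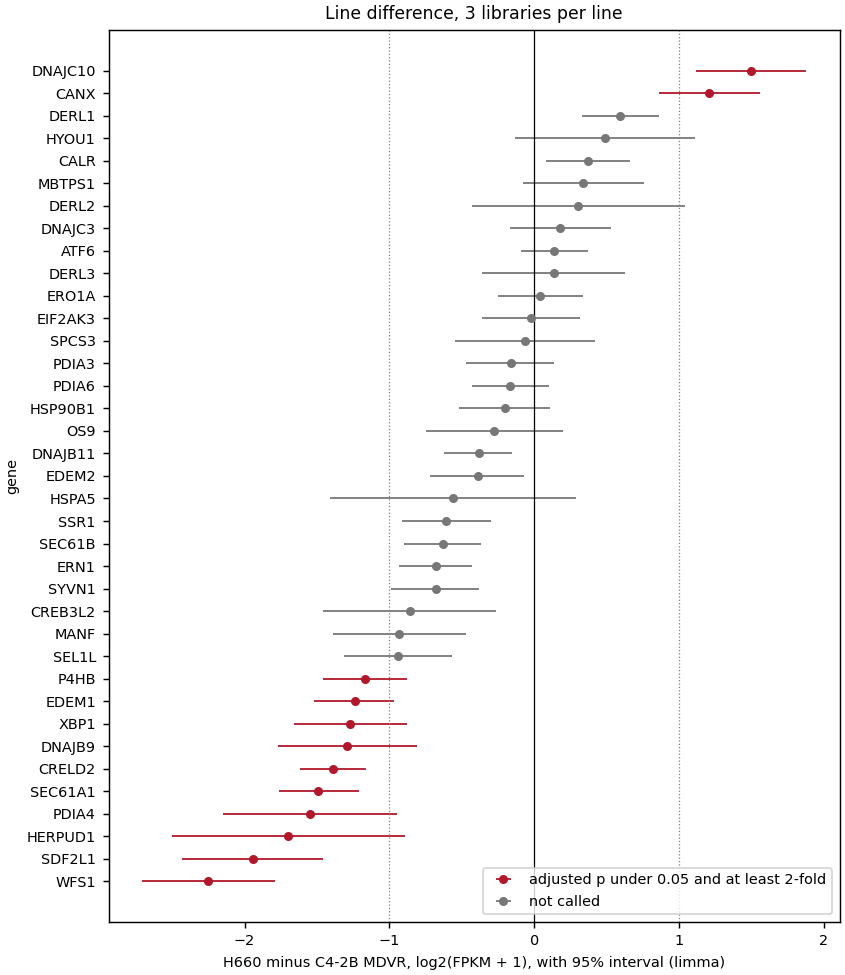
Line difference of each member, H660 minus C4-2B MDVR in log2(FPKM + 1), with the 95% interval from limma over 3 libraries per line. Red marks the 12 members with an adjusted p under 0.05 and at least 2-fold (dotted lines at −1 and 1). They run from WFS1 at −2.25 to DNAJC10 at 1.5, and HSPA5 at −0.56 has the widest interval of the 37.

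The promoter matches can be set beside these changes. Of the 10 members with ERSE or ERSE-II, 10 were above the control with siRNA 2 in C4-2B MDVR as deposited (median 0.24) and 5 with siRNA 1 (−0.02), but 6 to 8 with siRNA 2 and 2 to 4 with siRNA 1 under the other 3 scalings. Among the 24 measured members with a window and neither element, 16 were above it with siRNA 2 (0.14) and 16 with siRNA 1 (0.08), as deposited. Of all genes, 54.9% and 53.4% were. Counts of the 24, and of the 18 other genes below, are not given under the other scalings, so the groups can be compared as deposited only. In H660, as deposited, the 10 members counted 10 and 8 above the control, with medians of 0.22 and 0.17. The 24 without an element counted 17 and 19 (0.10 and 0.11), where 48.8% and 46.0% of all genes were above it. Of 18 other genes with a match that were expressed in C4-2B MDVR, 13 were above the control with siRNA 2 (median 0.18) and 11 with siRNA 1 (0.07). The 18 expressed in H660 counted 11 with siRNA 2 (0.08) and 7 with siRNA 1 (−0.04). Between siRNA 2 and siRNA 1 in C4-2B MDVR the median was 0.32 over the 10 members, 0.17 over the 24 and −0.13 over the 18 other genes. Among the members higher in all 4 knockdown libraries as deposited, CALR, CRELD2, HERPUD1, HSP90B1 and HSPA5 held an element. ATF6, DNAJB11, DNAJB9, DNAJC3, ERN1, SEL1L and SYVN1 held neither in this window. Of those that stayed in that list under all 4 scalings, HERPUD1 alone held one. Called line differences included both kinds in both directions. Of those lower in H660, SDF2L1, HERPUD1, CRELD2 and XBP1 hold one, and WFS1, PDIA4, SEC61A1, DNAJB9, EDEM1 and P4HB hold none. Of those higher in H660, CANX holds one (1.21 ± 0.14) and DNAJC10 holds none.

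The neighbouring genes of the pathway were measured from 6 further lists, and 0 of their members passed any knockdown test by limma. Their median changes over both lines were 0.03 for 14 folding enzymes, −0.03 for 16 degradation partners, 0.13 for 14 genes of translocation and signal peptides, 0.06 for 13 of glycosylation and glucose trimming, and 0.00 for 7 other sensors and processing genes, beside 0.11 for the 37 members and 0.01 for all genes. Between the lines, where 17.9% of all genes were called lower in H660 and 20.1% higher, 2 of the 14 folding enzymes were called lower, PDIA5 (−2.16 ± 0.14) and QSOX1 (−1.70 ± 0.22). In translocation, with 2 of 14 called each way, SSR3 (−2.08 ± 0.11) and SRPRB (−1.65 ± 0.11) were lower, and SEC11C was among those higher, at 1.31 ± 0.10. In glycosylation 2 of 13 were called, and OST4 (−1.51 ± 0.20) and RPN1 (−1.28 ± 0.12) were lower. Of the 7 other sensors, ATF6B was higher in H660 (2.37 ± 0.12), and 3 were lower, among them CREB3L1 (−2.87 ± 0.67) and CREB3L4 (−1.59 ± 0.17). Of the 16 degradation partners, 0 were called in either direction. Of the 9 genes of the sixth list, described below, 3 were called higher in H660 and 3 lower.

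CREB3L1, a relative of CREB3L2 cut by the same proteases, had a high value in a single library and is described with its values seen. It was at 3.69 FPKM with siRNA 2 and 27.4 with siRNA 1 in C4-2B MDVR, against 3.09 in the control. In H660 it stayed at or below 0.19 FPKM. The siRNA 1 library thus held the high value of CREB3L1 and the low value of CREB3L2.

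The sixth list, 9 genes of the integrated stress response downstream of PERK and its sister kinases, had the highest medians. All 9 had positive estimates in C4-2B MDVR (median 0.84) and in H660 (0.43), although 0 passed the adjusted test by limma, and 5 and 2 stood at an unadjusted p under 0.05, where 5.89% and 4.14% of all genes did. DDIT3, which encodes CHOP, was at 66.0 FPKM with siRNA 2 and 19.8 with siRNA 1 in C4-2B MDVR, against 9.23 in the control. In H660 DDIT3 had 78.0 FPKM with siRNA 2 and 68.3 with siRNA 1, against 41.9 in the control. ATF4, the factor that drives the list and named here with its values seen, was at 349.5 FPKM with siRNA 2 and 194 with siRNA 1 in C4-2B MDVR, against 209.7 in the control. CHAC1, a glutathione-degrading enzyme, was at 34.0 and 29.9 FPKM, against 9.87, and the transcription factor gene ATF3 at 41.2 and 16.5 FPKM, against 6.38. As deposited, 8 of the 9 were at least 1.5-fold higher than the control with siRNA 2 in C4-2B MDVR, against 6.13% of all genes. With siRNA 1, 5 were, against 8.29%. In H660 4 were with siRNA 2, against 3.49%, and 3 with siRNA 1, against 3.91%. Counts of this list under the other scalings are not given. CHAC1, ATF3 and DDIT3 stood above the control with either siRNA, whereas ATF4, like HSPA5, stood apart with siRNA 2.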

How the data were processed

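Messenger RNA of 6 libraries was read as paired ends, per the labels' protocols. HISAT, Cufflinks and hg18 are named in the submitters' processing notes, without versions. The authors deposited FPKM per Ensembl gene ID, and all 58735 IDs are in GENCODE 29, an annotation of GRCh38, which gave symbols, exon lengths and gene coordinates. FPKM times exon length came out as whole multiples of 1 fragment, within 0.05 fragments, in 100.0% of genes checked, those of up to 100 fragments. Fragment numbers were recovered from this.

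The tests were run with limma 3.58.1 (R 4.3.3) on log2(FPKM + 1), with an intensity trend, two-sided, over 15638 genes. The effect in both lines and the line difference came from an additive fit with 3 residual degrees of freedom. The effects per line came from a fit of 4 groups with 2, in which each single control takes its spread from the knockdown pairs. The steps were also run on simulated fragments, in which every knockdown library was given the same planted change. That run does not show how the tests perform where the siRNAs differ, as they do in C4-2B MDVR. Fold changes of low genes are understated on this scale.

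Values in every library are given, over the text, for ATF6, ERN1, EIF2AK3, XBP1, HSPA5, HSP90B1, HERPUD1, SEL1L and SYVN1, for members past a test or the 1.5-fold rule, and for the 3 largest and 3 smallest changes of each comparison. Up to 3 genes of each further list are named, and 1 luminal marker and 1 gene of these lists are not reported here. The members, the roles, the lists and the elements searched were chosen with earlier results of these data known. Other settings tried were a pseudocount of 0.1, no filter, quantile normalization, rescaling without mitochondrial genes and short RNAs, voom on recovered fragments, a block for the siRNA number and leaving out each library. The counts in all 4 knockdown libraries and with siRNA 2 alone, and the scaling by recovered totals, were added after seeing the data.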

Additional observations from a re-analysis of the deposited data

Results flagged for a closer look

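Members whose 2 knockdown libraries both lay on one side of the control in H660 and both on the other side in C4-2B MDVR were WFS1, SPCS3, DNAJC10 and EDEM1. The difference of the knockdown effect, H660 minus C4-2B MDVR, was −0.77 for WFS1 (unadjusted p = 0.0395 and adjusted p = 0.985 by limma), and its libraries lay −0.13 and −0.38 from the control in H660 and 0.43 and 0.60 from it in C4-2B MDVR, with siRNA 2 and siRNA 1. It was 0.80 for SPCS3 (unadjusted p = 0.0501, adjusted p = 0.985 by limma), whose C4-2B MDVR siRNA 2 library was within 0.01 of the control. It was 0.40 for DNAJC10 and −0.32 for EDEM1 (adjusted p = 0.985 by limma for both). None of the 4 differences passed the test, and sign alone places some genes in such a group. The share of all genes in it is not given, so the group is no result about the members. Counting intervals of the ratio to the control spanned no change for EDEM1 in H660 (0.888 to 1.05 with siRNA 2, 0.85 to 1.01 with siRNA 1). With siRNA 2 in C4-2B MDVR they also did for DNAJC10 (0.903 to 1.02) and SPCS3 (0.924 to 1.08).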

How the results depend on the processing

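The 3 residual degrees of freedom for both lines together, the 2 for the effects per line, and the single control of each line limit the knockdown comparisons. Called members remained 0 in each knockdown test under every setting that gave a value. The line difference called 9 to 13 members over the settings that keep all 6 libraries and 12 to 15 on leaving out 1. In the main setting the share was 32.4% of members, against 38.0% of all genes. Shares of all genes under the other settings are not given, so the range is not read as a result about the members. Leaving out a line's only control gives no value for that line's effect.

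With a pseudocount of 0.1, 1 member passed the 1.5-fold rule with both siRNAs in H660 (SPCS3) and 1 was 1.5-fold apart between the siRNAs there (DERL3). The 7 members 1.5-fold higher with siRNA 2 in C4-2B MDVR became 3 under quantile normalization, 3 after rescaling and 3 with recovered totals, and the 12 higher in all 4 knockdown libraries became 7 with recovered totals. The line difference reversed for EIF2AK3 after rescaling (0.23) and with voom (0.17), and for HSP90B1 under quantile normalization (0.20) and after rescaling (0.09). The cause was not tested.

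On leaving out 1 library, estimates that changed sign ranged from −0.28 to 0.13 for CREB3L2 in both lines, from −0.10 to 0.11 for the EIF2AK3 line difference and from −0.94 to 0.14 for DERL2 in C4-2B MDVR. For H660 minus C4-2B MDVR effects they ranged from −1.06 to 0.24 for HERPUD1 and from −1.16 to 0.18 for HSPA5. The siRNA numbers name the agent. Over 15638 genes the deviations of same-numbered libraries from their group means had a correlation of 0.0 between the lines. That value alone cannot show whether the libraries were made as pairs. With a replicate block for that number, 12 members were called between the lines and 0 in each knockdown test.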
